A study of Rattus norvegicus with 12 samples.

Results

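The genes described here are the ribosomal protein genes, taken as every gene whose KEGG pathway annotation in the deposited table holds the rat ribosome pathway, which gave 201 of 21556 genes. By symbol, 87 of them encode proteins of the cytosolic ribosome (52 Rpl genes of the large subunit and 35 Rps genes of the small subunit) and 43 encode proteins of the mitochondrial ribosome (27 Mrpl and 16 Mrps genes). The other 71 include *Fau*, which encodes a ribosomal protein fused to a ubiquitin-like protein, and *Rsl24d1*, a factor of large subunit assembly, and are mostly copies listed under LOC or RGD numbers. RNA was sequenced from ND7/23 cells, a hybrid line of rat dorsal root ganglion neurons and mouse neuroblastoma cells used as a model of sensory neurons, in 12 libraries. Control cells were compared with cells given 100 μM menthol, an agonist of the cold channel TRPM8, with cells given Wnt3a at 100 ng/ml, which signals through β-catenin, and with cells given both at these doses, each labelled 6 h and with 3 libraries. The comparisons address how menthol acts on Wnt3a signaling in these cells.

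As a model, the line is limited in that its genome is part rat and part mouse, while the reads were set against a rat genome. Of 14 markers of sensory neurons and neuroblastoma cells, 3 (*Uchl1*, *Isl1* and *Map2*) had a mean of at least 0.5 FPKM, a unit that divides reads by the length of the gene and the size of the library, and 4 of 6 fibroblast markers did. The fibroblast markers summed to 136.3 to 145.0 FPKM in the control libraries and to 124.1 to 135.2 FPKM in the 9 treated libraries, and no marker of these lists, nor of those of muscle, Schwann cells or macrophages, was at 0 throughout. The neuron and neuroblastoma markers summed to 112.6 to 120.4 FPKM in control and 120.6 to 132.4 with both agents, while menthol and Wnt3a overlapped control. The Schwann cell markers, low throughout, summed to 0.53 to 0.59 FPKM in control and 0.51 to 0.75 with menthol. They summed to 0.63 to 1.18 with Wnt3a and 1.04 to 1.47 with both. The muscle and macrophage sums overlapped control in every group. The part of these markers in the results below was not tested. The labels do not say that the 3 libraries of a group came from separate cultures, so p-values measure the spread between these libraries, which may be technical.

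A ribosome is built from ribosomal RNA and one copy of most of its proteins, so cells keep the mRNAs of the cytosolic ribosomal proteins at high and even levels. Many of these mRNAs start with a run of C and T bases, the 5′ TOP motif, through which mTOR signaling controls their translation and stability. Mitochondrial ribosomes are a separate machine, encoded for their proteins by nuclear genes, and translate the few membrane proteins of the respiratory chain that mitochondrial DNA encodes. The promoters of both groups are known for binding sites of ETS factors such as GABPA, and mitochondrial genes also for NRF1 and YY1.

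RefSeq promoter sequences of build GRCr8, each 250 bases before to 50 bases after an annotated start, were found for 68 of 87 cytosolic and 35 of 43 mitochondrial genes. A run of C and T of at least 8 bases, touching the 10 bases on either side of the start, was present in 45 of 69 cytosolic promoters (65.2%), in 8 of 37 mitochondrial promoters (21.6%) and in 13.2% of all 33469 promoters in the table. The ETS core CCGGAAG, on either strand, was held by 29% of the cytosolic, 32.4% of the mitochondrial and 8.75% of all promoters. The YY1 core AAGATGGC was held by 8.7, 16.2 and 3.17%, and the NRF1 core TGCGCATG by 7.25, 8.11 and 2.11%, in the same order. The TATA box TATAAA was about as frequent in these sets, at 13, 10.8 and 14.2%, and was held by 25% of the 36 promoters of the other members. A match of letters is a description and not a site of binding.

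The stretches from 100 bases before to 20 bases after the start are shown for 6 genes: *Rps14* and *Rps18*, which passed the test with Wnt3a, *Rplp0*, the most abundant member, *Mrpl17* and *Mrps7*, among the most abundant mitochondrial members, and *mrpl9*, a mitochondrial member with higher values in the cells given both agents. Capitals mark the run of C and T at the start, where it has at least 8 bases, and the motifs named above. They lie in GRCr8 at chr18:56498160-56498279 on the plus strand (*Rps14*), chr20:4933645-4933764 on the plus strand (*Rps18*), chr12:46718371-46718490 on the minus strand (*Rplp0*), chr1:169575680-169575799 on the minus strand (*Mrpl17*), chr10:101342542-101342661 on the plus strand (*Mrps7*) and chr2:184770967-184771086 on the plus strand (*mrpl9*).
Rps14: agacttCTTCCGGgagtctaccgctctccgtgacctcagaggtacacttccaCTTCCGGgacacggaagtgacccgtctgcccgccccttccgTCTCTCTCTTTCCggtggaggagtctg
Rps18: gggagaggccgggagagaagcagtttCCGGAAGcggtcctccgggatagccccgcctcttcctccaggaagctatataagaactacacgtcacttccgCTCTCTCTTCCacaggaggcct
Rplp0: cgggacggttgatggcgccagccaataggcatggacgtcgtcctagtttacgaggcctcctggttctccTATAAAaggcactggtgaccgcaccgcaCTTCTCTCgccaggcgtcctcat
Mrpl17: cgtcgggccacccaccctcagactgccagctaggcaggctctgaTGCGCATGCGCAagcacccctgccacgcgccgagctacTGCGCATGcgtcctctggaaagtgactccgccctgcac
Mrps7: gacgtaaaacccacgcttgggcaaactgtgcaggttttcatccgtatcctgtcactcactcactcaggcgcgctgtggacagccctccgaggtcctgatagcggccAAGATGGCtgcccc
mrpl9: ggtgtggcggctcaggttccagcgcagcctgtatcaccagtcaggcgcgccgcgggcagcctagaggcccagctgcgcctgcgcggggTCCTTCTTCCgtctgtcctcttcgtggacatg
The *Rps14* start carries a run of 13 such bases and an ETS core 48 and again 94 bases upstream, while *Mrpl17* has no such run and holds the NRF1 core near the start and, as an overlapping pair, farther upstream.

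The cytosolic genes were expressed far above the mitochondrial ones. Of the members, 81 cytosolic, 42 mitochondrial and 36 other genes reached the mean of 0.5 FPKM required for a test. The tested cytosolic genes had a median of 733 FPKM (12.1 to 2337) and the mitochondrial genes of 23.8 FPKM (3.37 to 90.3), a ratio of 30.7 between the medians. Of the cytosolic genes, 77 had at least 100 FPKM and 44 were among the 100 highest genes of the table, and no mitochondrial gene reached either mark. The libraries held 36914722 to 38837023 reads on genes, and a cytosolic gene had a median of 18858 reads per library and a mitochondrial gene 1099. The median coefficient of variation within groups was 2.88% for cytosolic and 5.49% for mitochondrial genes.

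**Figure D1:**
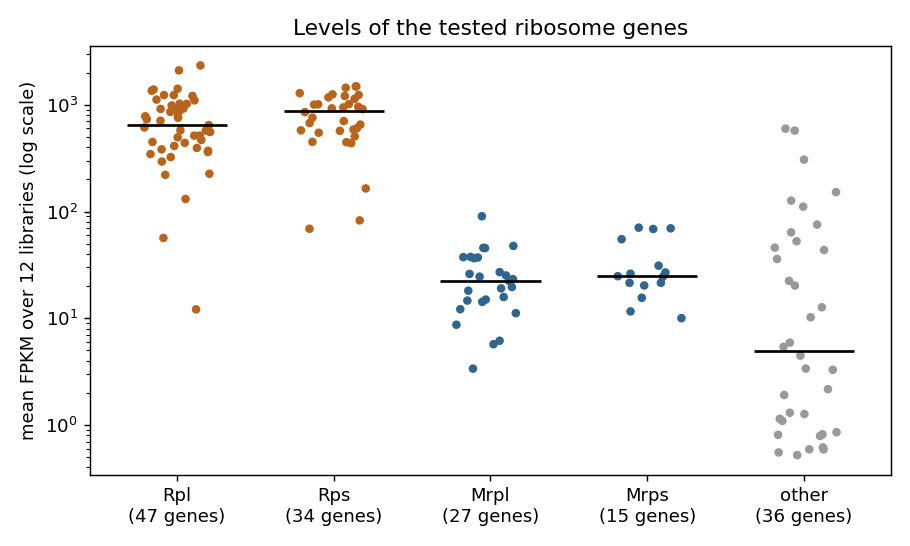
Mean FPKM over the 12 libraries, on a log scale, of each tested member, with 1 point per gene and a line at the median of each set. The 47 Rpl and 34 Rps genes mostly lie between 100 and 2337 FPKM, the 27 Mrpl and 15 Mrps genes all lie under 100, and the 36 other members, mostly copies under LOC or RGD numbers, spread from 0.52 to 598 FPKM.

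*Rplp0*, the core protein of the stalk that recruits elongation factors, was the highest member at 2337 FPKM, followed by *Rpl41* at 2102 FPKM. Its partners in the stalk differed, with *Rplp1* at 1414 and *Rplp2* at 495 FPKM. In the small subunit, *Rps6*, the substrate of S6 kinase, was at 1444 FPKM and *Rpsa*, also known as the laminin receptor, at 1209 FPKM. *Rpl5* and *Rpl11*, which with 5S RNA bind MDM2 when ribosome assembly fails, were at 411 and 448 FPKM. The lowest tested genes of each subunit were *Rpl37* (12.1 FPKM, a gene that RefSeq names Rpl37l1) and *Rpl22l1* (56.5 FPKM) for the large and *Rps10l1* (68.9 FPKM, a pseudogene in RefSeq) and *Rps18l1* (82.5 FPKM) for the small subunit. The genes with the symbols *Rpl37*, *Rpl36al*, *Rpl10l*, *Rpl39l*, *Rps9l1*, *Rps19l2* and *Rpl35al1* in the table have other symbols in RefSeq by their gene identifiers, the last 3 being *Rps9*, *Rps19* and *Rpl35a* there, so symbol and parent gene need not match.

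Several cytosolic proteins have a second gene, and in each pair the gene known as the general one had the higher level. *Rps27* was at 945 and *Rps27l* at 165 FPKM, *Rpl22* at 394 and *Rpl22l1* at 56.5 FPKM, and *Rpl36a* at 345 and *Rpl36al* at 131 FPKM. *Rpl3l*, *Rpl39l*, *Rpl10l* and *Rps4y2*, counterparts of *Rpl3* (555 FPKM), *Rpl39* (573 FPKM), *Rpl10* (774 FPKM) and *Rps4x* (570 FPKM) had at most 5 reads in any library. *Rpl7l1*, the counterpart of *Rpl7* (1020.1 FPKM), lies outside the pathway annotation. Genes this alike can share reads, and how reads that match several genes were counted is not given in the sources used here, so the split within a pair is uncertain.

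Among the mitochondrial genes, *Mrpl17* (90.3 FPKM), *Mrps18c* (70.6 FPKM), *Mrps7* (69.6 FPKM) and *Mrpl13* (47.6 FPKM) were the highest of their subunits. *Mrpl1* (3.37 FPKM), *mrpl24* (5.71 FPKM), *Mrps10* (10.02 FPKM) and *Mrps15* (11.6 FPKM) were the lowest. *Mrpl12*, which also binds the mitochondrial RNA polymerase, was at 37.6 FPKM, and *Mrps12*, the counterpart of the bacterial protein whose mutation gives resistance to streptomycin, at 26.2 FPKM.

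Summed over the 87 cytosolic genes, the control libraries held 59589, 61570 and 61586 FPKM and the menthol libraries 64058, 61735 and 61807 FPKM. The Wnt3a libraries held 66479, 68234 and 63081 FPKM, and those given both agents 64540, 63395 and 61947 FPKM. The libraries of all 3 treated groups lay above the control libraries, by the least with menthol, and both other treated groups overlapped the Wnt3a range. The mean sum was 60915 ± 1148 FPKM (SD, n = 3) in control. It was 62533 ± 1321 under menthol, 65932 ± 2620 under Wnt3a and 63294 ± 1299 under both agents, which is 2.66, 8.24 and 3.91% above control. As a share of the reads on genes, the means were 4.32% (control), 4.43% (menthol), 4.67% (Wnt3a) and 4.50% (both agents). FPKM are relative to each library's total, so more of these mRNAs per cell and less of the other mRNAs cannot be told apart, nor can a change in every cell and a change in the mix of cells.

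**Figure D2:**
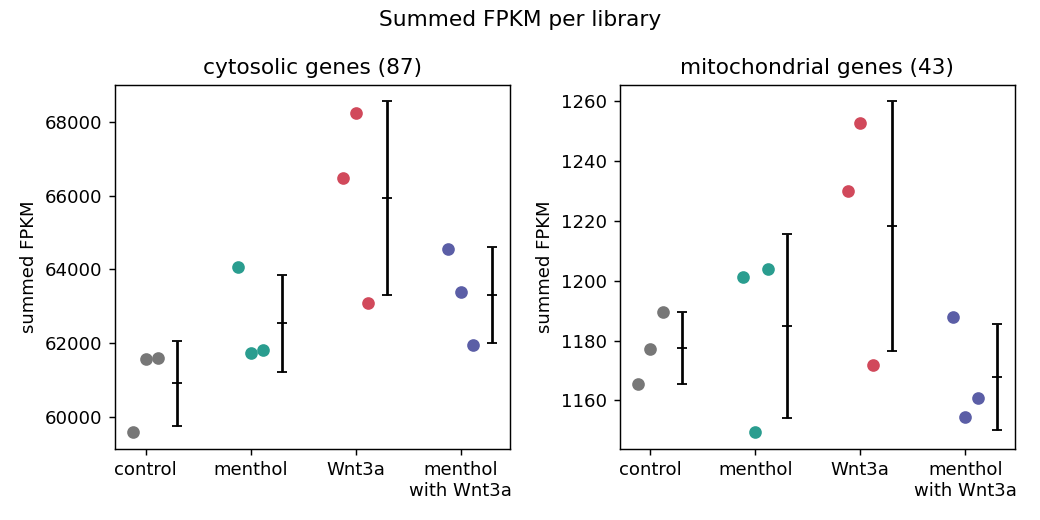
Summed FPKM of the 87 cytosolic (left) and 43 mitochondrial (right) genes in each library by group, with 1 point per library and, beside the points, the mean and SD of the 3 libraries. The vertical axes do not start at 0. For the cytosolic genes, the Wnt3a libraries (63081 to 68234) have the highest mean but overlap those with menthol and with both agents. They spread more than the control libraries (59589 to 61586).

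The sum moved with single libraries. Wnt3a replicate 2 was the highest of its group for 63 of the 81 tested cytosolic genes and Wnt3a replicate 3 the lowest for 74. Control replicate 1 was the lowest of its group for 68 genes, menthol replicate 1 the highest for 56 and replicate 1 of both agents the highest for 57. The cytosolic genes of a library thus moved together, so that they are not 81 separate observations of a treatment.

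The mitochondrial sums averaged 1178 ± 12.1 FPKM (SD, n = 3) in the control libraries. They averaged 1185 ± 30.8 under menthol, 1218 ± 41.8 under Wnt3a and 1168 ± 17.8 under both agents, and all groups overlapped control. The ratio of the cytosolic to the mitochondrial sum was 51.1 to 52.3 in the control libraries, 51.3 to 53.7 with menthol, 53.8 to 54.5 with Wnt3a and 53.4 to 54.9 with both agents. The 3 Wnt3a libraries and the 3 with both agents lay above the control libraries in this ratio, and the menthol libraries overlapped them.

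In Wnt3a against control, the cytosolic ribosomal protein genes were higher as a group by a small amount. All 81 tested cytosolic genes had a higher mean with Wnt3a, with a median difference of 0.113 in log2(FPKM + 0.1), or 8.11%, against 0.0042 over all 11451 tested genes. The differences ranged from 0.032 to 0.53 on this scale, and the middle 50% of the genes lay between 0.098 and 0.127. With limma, 3 genes passed at an adjusted p under 0.05, namely *Rps14*, *Rps18* and *Rps18l1*, all of the small subunit, where 0.437% of all tested genes passed. At an unadjusted p under 0.05, 67 cytosolic genes were higher and 0 lower, where 8.17% of all tested genes were higher and 6.91% lower. The Wnt3a and control libraries did not overlap for 63 of them, all higher, where 10.1% of all tested genes did not overlap in that direction and 10.1% in the other. By limma voom on read counts recovered from the FPKM, 34 cytosolic genes and 35 members in all passed, where 2.65% of all tested genes did. The cytosolic genes passing by voom were 16 Rpl and 18 Rps genes. By subunit, the median difference was 0.109 over the 47 tested Rpl genes and 0.117 over the 34 tested Rps genes.

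*Rps14*, a protein of the small subunit's platform, was at 720.03, 720.35 and 724.94 FPKM in control and 819.48, 811.67 and 778.46 FPKM with Wnt3a. It was at 746.05, 752.22 and 730.58 FPKM with menthol and 778.23, 766.34 and 741.07 FPKM with both. Every library of each treated group lay above the control libraries, and those with both agents lay below those with Wnt3a. *Rps14* rose with Wnt3a by 0.154 ± 0.027 (SE) on the log2(FPKM + 0.1) scale (limma, adjusted p = 0.0354).

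*Rps18*, a protein of the small subunit's head, was at 1157.8, 1188.7 and 1184.9 FPKM in control and 1293.7, 1345 and 1256.2 FPKM with Wnt3a. With both agents its 3 libraries were close together at 1254.4, 1261.1 and 1258 FPKM, above control and overlapping Wnt3a, and with menthol alone they were at 1213.2, 1184.5 and 1217.9 FPKM. It rose with Wnt3a by 0.141 ± 0.028 (SE) in log2 (adjusted p = 0.0475).

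*Rps18l1*, a gene nearly the same as *Rps18* that can share its reads, was at 74.3, 78.4 and 78.2 FPKM in control and 89.4, 91.3 and 91.3 FPKM with Wnt3a. The 3 libraries with both agents, at 82.3, 83.2 and 83.4 FPKM, lay between those groups without overlap, while menthol alone overlapped control at 77.1, 86.5 and 75.04 FPKM. It rose with Wnt3a by 0.237 ± 0.044 (SE) in log2 (adjusted p = 0.0422).

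These calls depended on single libraries. Without control replicate 1, 2 or 3, without Wnt3a replicate 1 or 2, or without replicate 2 of both agents, 0 members passed with Wnt3a, 1 passed without menthol replicate 2, without menthol replicate 3 or without replicate 3 of both agents, and 43 passed without Wnt3a replicate 3, the lowest of its group. When the highest Wnt3a library and the lowest control library were both left out, 0 members passed and the median of the cytosolic genes was 0.072 in log2. The shares of all tested genes passing in these fits are not reported here, so whether 43 is particular to the members cannot be told.

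**Figure D3:**
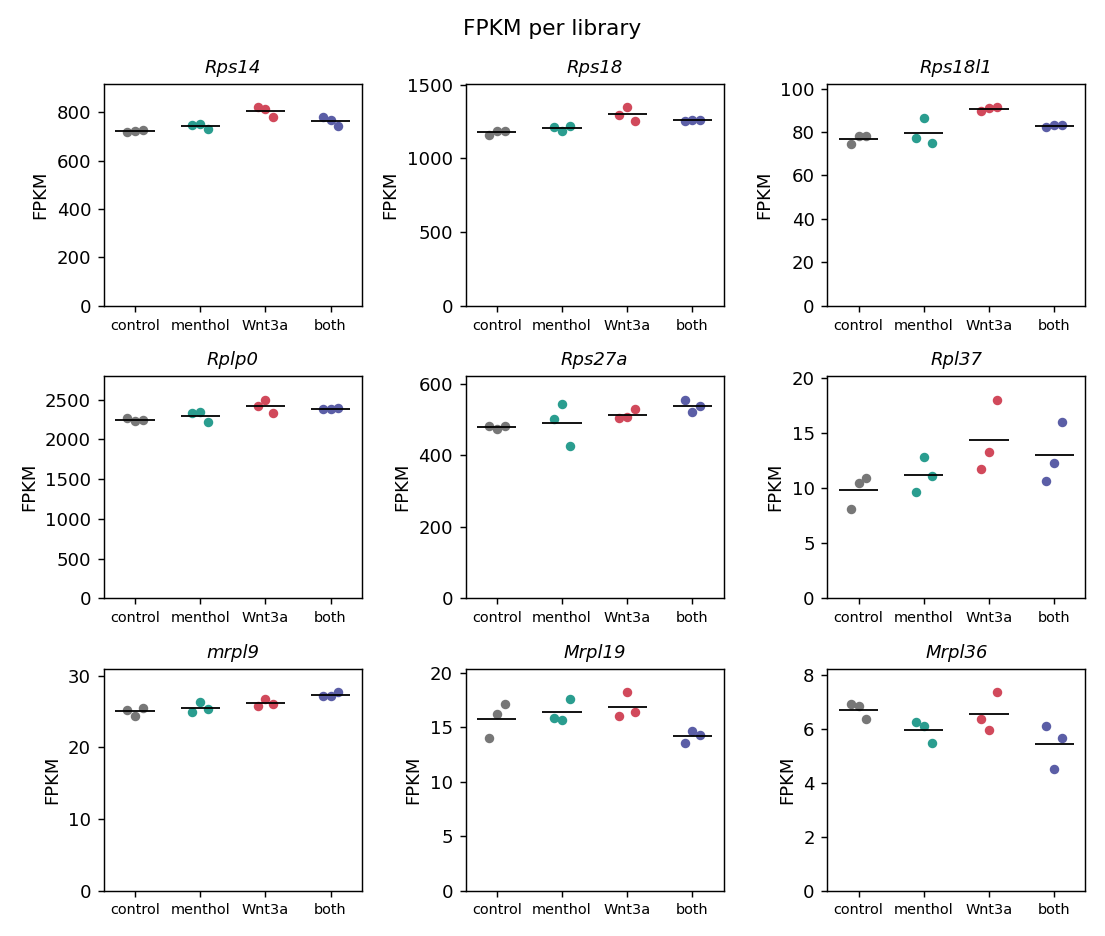
FPKM in each library of 9 members by group, with 1 point per library and a line at the mean of 3, on axes that start at 0. *Rps14*, *Rps18* and *Rps18l1*, which passed with Wnt3a, differ from control by 11.3, 10.3 and 17.8% in the fit, and *mrpl9*, *Mrpl19* and *Mrpl36* show mitochondrial genes that follow other orders of the groups.

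The difference also moved with gene length. The tested cytosolic genes are short, with a median length of 690 bases as used for the FPKM. Among tested genes outside the pathway, the 429 genes under 750 bases had a median difference between Wnt3a and control of 0.081 in log2, the 1445 genes of 750 to under 1500 bases one of 0.057, and the 2246 genes of 6000 bases or more one of −0.043. In the same length classes, the 48 cytosolic genes under 750 bases had a median of 0.121 and the 30 of 750 to under 1500 bases a median of 0.107, above the other genes of their length. By library, the short genes outside the pathway were highest in Wnt3a replicate 2 (0.093 from their mean) and lowest in replicate 3 of both agents (−0.054), and Wnt3a replicate 3 (−0.0018) stood below the other 2 Wnt3a libraries, as it did for the cytosolic genes. When the trend with length among genes outside the pathway was removed from each library, the median of the cytosolic genes with Wnt3a was 0.037 in log2 and 0 members passed. Level was a further such factor, as the 641 other genes of at least 100 FPKM had a median of 0.036, and removing the trend with level left a median of 0.069 in the cytosolic genes.

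**Figure D4:**
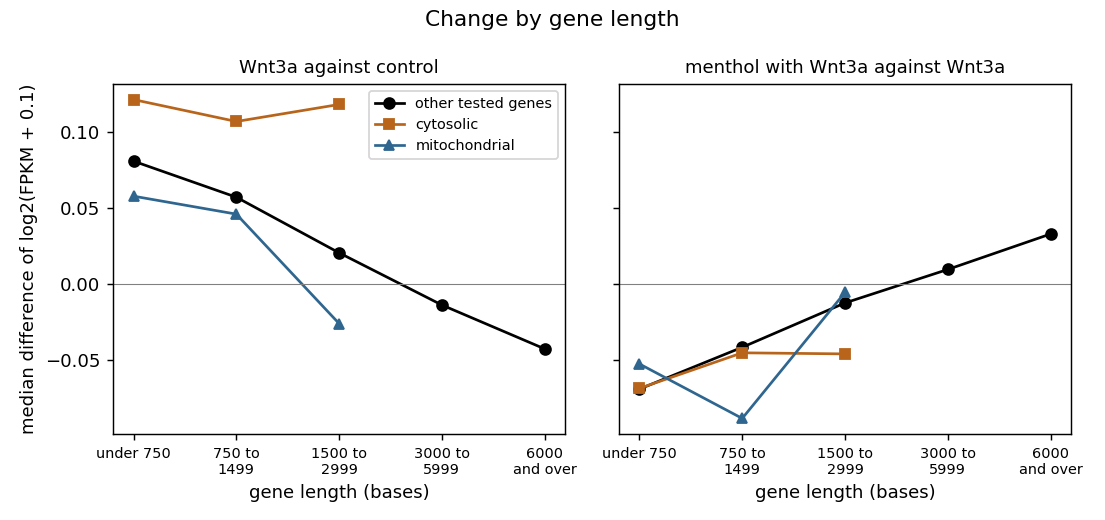
Median difference of log2(FPKM + 0.1) by gene length class for Wnt3a against control (left) and menthol with Wnt3a against Wnt3a (right), for tested genes outside the pathway (circles), cytosolic (squares) and mitochondrial (triangles) genes. With Wnt3a, other genes run from 0.081 for the shortest to −0.043 for the longest, with the cytosolic genes above them at each length, and against Wnt3a the order turns over, with the cytosolic genes under 750 bases at −0.069 like the other genes of that length.

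Most other cytosolic genes named for their role had differences near the median of the class. *Rplp0* was at 2263.2, 2227.4 and 2242.4 FPKM in control and 2420.6, 2496.2 and 2337.2 FPKM with Wnt3a, with no overlap (0.107 ± 0.030 (SE) in log2, adjusted p = 0.12). *Rps6*, *Rpsa*, *Rpl5* and *Rpl11* differed by 0.115, 0.085, 0.104 and 0.102, each with no overlap and none passing. *Rps4x* differed by 0.123 (adjusted p = 0.077) and *Rpl10* by 0.114. *Rplp1* and *Rplp2*, which dimerize on the stalk, differed by 0.122 and 0.032 with overlap, the second being the smallest difference of the class. *Rpl37* had the largest difference, 0.53 ± 0.17 (SE), at a level of 8.10, 10.5 and 10.95 FPKM in control and 11.8, 13.3 and 18.04 FPKM with Wnt3a, and did not pass (adjusted p = 0.16).

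In the pairs, the differences with Wnt3a were 0.104 for *Rps27* and 0.106 for *Rps27l*, 0.072 for *Rpl22* and 0.113 for *Rpl22l1*, and 0.124 for *Rpl36a* and 0.064 for *Rpl36al*, with standard errors of 0.047 to 0.075. *Fau* differed by 0.110, with the Wnt3a libraries above control (adjusted p = 0.11). *Rps27a*, whose protein is made as a fusion with ubiquitin, was the only tested cytosolic gene whose group mean was highest with both agents instead of Wnt3a.

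The mitochondrial genes showed a smaller and less even difference with Wnt3a. Of 42 tested genes 30 were higher, with a median of 0.045 in log2 and a range of −0.173 to 0.233. None passed by limma or by voom, 2 were higher at an unadjusted p under 0.05 and 0 lower, and the libraries did not overlap for 5 higher and 1 lower, which are shares near or under those of all tested genes. *Mrps7*, a protein of the small subunit's head, was at 66.1, 66.7 and 67.9 FPKM in control and 74.5, 72.7 and 71.6 FPKM with Wnt3a, a difference of 0.124 ± 0.036 (SE) with the smallest adjusted p of the class (0.128). *mrpl24* and *Mrpl30* had the largest differences among genes without overlap, at 0.233 and 0.163, and *Mrpl3* the largest the other way, at −0.051. With the trend with length removed, the median of the class was −0.023. At matched length, the 23 mitochondrial genes of 750 to under 1500 bases had a median of 0.046, against 0.107 for 30 cytosolic and 0.057 for 1445 other genes.

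**Figure D5:**
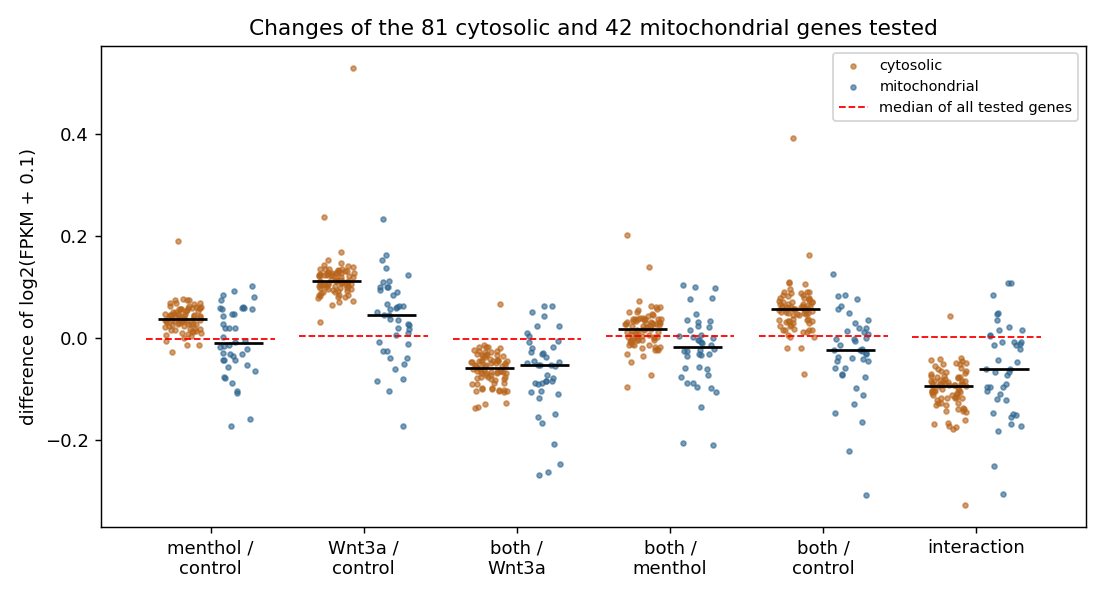
Difference of log2(FPKM + 0.1) in each comparison for the 81 cytosolic and 42 mitochondrial genes tested, with 1 point per gene, a black line at the class median and a dashed line at the median of all tested genes; "both" is menthol with Wnt3a. The cytosolic genes form a tight cloud at 0.113 with Wnt3a and at −0.059 for both against Wnt3a, and the mitochondrial genes spread more widely around 0.045 and −0.053.

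With menthol against control, 76 of 81 cytosolic genes were higher, with a median of 0.038 in log2, against −0.0016 over all tested genes. The mitochondrial genes had a median of −0.010, with 19 of 42 higher. No member passed by limma or voom, where 0.105 and 0.524% of all tested genes did. At an unadjusted p under 0.05, 11 of the 159 tested members were higher and 2 lower, among them 3 cytosolic genes higher and 1 mitochondrial gene lower, where 4.51% of all tested genes were higher and 4.82% lower. The libraries did not overlap for 15 cytosolic genes, all higher, and for 2 mitochondrial genes, both lower, where 7.48% of all tested genes were higher and 8.38% lower in this way. *Rps24* and *Rps10l1* had the largest differences among cytosolic genes without overlap, at 0.076 and 0.075. *Mrpl36*, a small protein of the large subunit, was at 6.92, 6.84 and 6.35 FPKM in control and 6.24, 6.10 and 5.47 FPKM with menthol, a difference of −0.172 ± 0.103 (SE), and *Mrps10* differed by −0.160. The short genes outside the pathway, under 750 bases, had a median of 0.033 here, and with the trend with length removed the cytosolic median was 0.0016 and the mitochondrial −0.023. Leaving out control replicate 1 gave a cytosolic median of 0.022, and leaving out menthol replicate 1 gave 0.024.

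For menthol with Wnt3a against Wnt3a, the comparison that shows menthol's difference when Wnt3a is present, the cytosolic genes had the opposite sign. Of 81 genes 80 were lower with both agents, with a median of −0.059 in log2, against −0.0017 over all tested genes, and 34 of 42 mitochondrial genes were lower with a median of −0.053. No member passed by limma or voom, where 0.0524 and 1.25% of all tested genes did. At an unadjusted p under 0.05, 28 of the 159 tested members were lower and 2 higher, among them 15 cytosolic and 9 mitochondrial genes lower and 0 of either class higher, where 7.37% of all tested genes were lower and 7.13% higher. The libraries did not overlap for 8 cytosolic genes, all lower, and for 5 mitochondrial genes lower and 1 higher, where 8.57% of all tested genes were lower and 9.11% higher in this way.

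The 429 short genes outside the pathway had a median of −0.069 in this comparison, and the 48 cytosolic genes of that length also −0.069. With the trend with length removed, the cytosolic median was 0.0079 and the mitochondrial −0.0087, and without Wnt3a replicate 2 they were −0.035 and −0.036. *Rpl19* was at 1075.1, 1123.6 and 1048.8 FPKM with Wnt3a and 1021.9, 1021.8 and 977.19 FPKM with both, the difference of −0.104 ± 0.032 (SE) being the second largest among cytosolic genes without overlap, after *Rps18l1* at −0.128. *Mrpl19* was at 16.02, 18.2 and 16.4 FPKM with Wnt3a and 13.6, 14.7 and 14.3 FPKM with both, a difference of −0.248 ± 0.073 (SE, adjusted p = 0.168), and *Mrpl30* differed by −0.209. *mrpl9* went the other way, at 25.8, 26.7 and 26.0 FPKM with Wnt3a and 27.2, 27.2 and 27.7 FPKM with both (0.063 ± 0.034, SE).

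The interaction of menthol and Wnt3a, the difference between menthol's effect with and without Wnt3a, had a median of −0.093 in log2 over the cytosolic genes (80 of 81 below 0) and of −0.061 over the mitochondrial genes, against 0.0013 over all tested genes. No member passed by limma or voom, where 0% of all tested genes did (0 and 0 of 11451), and the smallest adjusted p of a member was 0.715. At an unadjusted p under 0.05, 34 of the 159 tested members were below 0 and 1 above, among them 22 cytosolic and 5 mitochondrial genes below and 0 of either class above, where 3.89% of all tested genes were below and 3.09% above. The short genes outside the pathway had a median interaction of −0.107, and with the trend with length removed that of the cytosolic genes was 0.0076. The interaction is built from the same Wnt3a and control libraries as the comparisons above and is not independent of them.

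Cells given both agents against control had a median difference of 0.056 in log2 over the cytosolic genes, of which 78 of 81 were higher, and of −0.023 over the mitochondrial genes, of which 28 of 42 were lower, against 0.0040 over all tested genes. Without replicate 2 of both agents the mitochondrial median was −0.0053. The short genes outside the pathway had a median of 0.0065 in this comparison, and those of 750 to under 1500 bases 0.014, while the cytosolic genes of these lengths had medians of 0.051 and 0.061. By limma 1 member passed, LOC684988, where 0.83% of all tested genes did, and by voom 3 members passed (*Rps4x*, *Rps2* and LOC100360522), where 2.28% did. At an unadjusted p under 0.05, 20 cytosolic genes were higher and 0 lower, and 1 mitochondrial gene was higher and 2 lower, where 6.74% of all tested genes were higher and 6.76% lower. The libraries did not overlap for 34 cytosolic genes, all higher, and for 3 mitochondrial genes in each direction, where 10.5% of all tested genes were higher and 9.98% lower in this way. Wnt3a against control and both against control share their control libraries.

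LOC684988, which RefSeq lists as a pseudogene of *Rps13*, was at 142.6, 139.09 and 147.14 FPKM in control and 163.92, 156.02 and 154.73 FPKM with both agents. All treated libraries lay above control, at 150.77, 153.18 and 148.62 FPKM with menthol and 155.18, 159.59 and 152.48 FPKM with Wnt3a. It rose with both agents by 0.146 ± 0.031 (SE) in log2 (limma, adjusted p = 0.0459, and 0.058 by voom), and it did not pass without any single control library (adjusted p of 0.067 to 0.170) or any single library of both agents (0.078 to 0.129). As a copy it can share reads with its parent gene.

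Several other members had no overlap between both agents and control without passing. *Rps27a* was at 482.62, 474.38 and 482.4 FPKM in control and 554.15, 519.88 and 537.15 FPKM with both (0.162 ± 0.062, SE), and its menthol libraries spread from 426.4 to 541.9 FPKM. *mrpl9* was at 25.2, 24.3 and 25.5 FPKM in control, below both agents (0.126 ± 0.034, SE, adjusted p = 0.11). *Mrpl36*, at 6.11, 4.52 and 5.67 FPKM with both, differed by −0.308 ± 0.103 (SE), and *Mrpl14*, at 13.96, 11.5 and 13.1 FPKM in control and 11.04, 11.2 and 10.8 FPKM with both, by −0.222 ± 0.083 (SE). *Rps2* differed by 0.110 and *Mrpl12* by 0.085.

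For menthol with Wnt3a against menthol, the median was 0.018 in log2 over the cytosolic genes (57 of 81 higher) and −0.018 over the mitochondrial genes (16 of 42 higher), against 0.0043 over all tested genes. Single libraries decided these values, with a cytosolic median of 0.039 without menthol replicate 1, 0.034 without replicate 3 of both agents, 0.0089 without menthol replicate 2 and 0.0058 without replicate 1 of both agents. The mitochondrial median was −0.047 without menthol replicate 2, −0.028 without replicate 1 of both agents, and −0.0054, −0.0019 and −0.0072 without menthol replicate 1, menthol replicate 3 and replicate 2 of both agents. No member passed by limma or voom, where 0.0961 and 0.288% of all tested genes did. At an unadjusted p under 0.05, 7 of the 159 tested members were higher and 7 lower, among them 3 cytosolic genes higher and 0 lower and 1 mitochondrial gene higher and 4 lower, where 3.45% of all tested genes were higher and 3.27% lower. The libraries did not overlap for 9 cytosolic genes, all higher, and for 1 mitochondrial gene higher and 3 lower, where 5.97% of all tested genes were higher and 5.31% lower in this way. *Rpl10* (0.072) and *Rps18* (0.062) had the largest differences among cytosolic genes without overlap, and *mrpl9* (0.099), *Mrpl14* (−0.209) and *Mrpl19* (−0.206) among mitochondrial genes.

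The 36 other members tested, most of them copies at a low level, had a median of 0.113 in log2 with Wnt3a against control (30 higher), 0.074 with menthol (24 higher) and 0.070 with both (26 higher), and −0.053 for both against Wnt3a (23 lower). RefSeq lists 22 of these 36 as pseudogenes (4 of them transcribed) and 14 as protein-coding. The members under 0.5 FPKM were 6 cytosolic genes (*Rpl10l*, *Rpl30l1*, *Rpl3l*, *Rplp0l1*, *Rpl39l* and *Rps4y2*), with at most 7 reads in any library, *Mrps21l*, with at most 2, and 35 other members. A count of 3 reads, the limit that a count of 0 allows, is 0.0773 to 0.0813 FPKM on a gene of 1 kilobase, and intervals and limits of this kind cover counting error only.

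Genes around the ribosome were described from 4 lists. Of 20 translation factors and related genes with TOP mRNAs, 19 were tested, and with Wnt3a their median was 0.048 in log2 (14 higher), with 0 passing by limma, 3 by voom, and 6 higher and 0 lower at an unadjusted p under 0.05, where 2.65% of all tested genes passed by voom and 8.17% were higher and 6.91% lower. *Eef1a1* and *Rack1*, a protein of the small subunit by structure, differed by 0.106 and 0.105. The median length of this list was 1758 bases, and the tested genes outside the pathway of 1500 to under 3000 bases had a median of 0.020. The 641 other genes of at least 100 FPKM had a median of 0.036. The 40 mitochondrial ribosomal proteins that the pathway annotation leaves out had a median of 0.062 with Wnt3a (33 higher), with 0 passing by limma or voom and 11 higher and 0 lower at an unadjusted p under 0.05, against the same shares of all tested genes. Their median length was 1171 bases, and the other genes of 750 to under 1500 bases had a median of 0.057. Of the 23 mitochondrial translation factors, with a median of 0.037, 1 passed by limma with Wnt3a and 0 by voom. Of all tested genes, 0.437 and 2.65% did. The gene that passed was *Mtfmt*, which formylates the initiator methionyl-tRNA (0.237 in log2, adjusted p = 0.0493), and its call was not tested with libraries left out. At an unadjusted p under 0.05, 2 of this list were higher and 0 lower, where 8.17% of all tested genes were higher and 6.91% lower.

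Of 21 genes that control ribosomal protein genes and mRNAs, 19 were tested, with a median of −0.040 with Wnt3a (12 lower). None passed by limma, 2 passed by voom, and at an unadjusted p under 0.05 6 were lower and 1 higher, where 2.65% of all tested genes passed by voom and 6.91% were lower and 8.17% higher. These genes are long, with a median of 5574 bases, and the genes outside the pathway of 3000 to under 6000 bases had a median of −0.014 and those of 6000 bases or more −0.043. *Myc*, a transcription factor of ribosome genes, *Larp1*, which binds the TOP motif, and *Mtor* were lower by the fit, at −0.188, −0.166 and −0.137, and *Eif4ebp1*, an inhibitor of cap-dependent translation, was at 0.101. With both agents against Wnt3a, the list had a median of 0.068 (15 of 19 higher, 6 at an unadjusted p under 0.05), with 0 passing by limma and 1 by voom, where 7.13% of all tested genes were higher at an unadjusted p under 0.05 and 1.25% passed by voom. In this comparison the genes outside the pathway of 3000 to under 6000 bases had a median of 0.0094 and those of 6000 bases or more 0.033.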

How the data were processed

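RNA from 12 ND7/23 libraries, 3 in each of 4 groups given by the labels, was sequenced. Per the labels and the study's methods, the authors used fastp to filter reads, HISAT for alignment and HTSeq-count for counting, and deposited FPKM per gene and library, unpooled. The build in the submitters' processing notes is mRatBN7.2, beside R 3.2.0 and DESeq2. Other versions and the annotation are not given in the sources used here. Each deposited FPKM is a whole number of equal steps of 1 read, from which whole reads and gene lengths were recovered for 21556 of 21556 genes (100.0%, largest relative distance 3.2e-13), of which 1804 are above 0 in 1 library only. Libraries of the same group varied beyond counting noise.

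The test was limma 3.58.1 (R 4.3.3), applied to log2(FPKM + 0.1) values, with genes of mean FPKM of at least 0.5 (11451), all groups in 1 fit, a variance trend and Benjamini-Hochberg adjustment over all tested genes. It was tested on simulated data, which held no trend with library or gene length. That simulation therefore does not cover differences that move with whole libraries or with length. A pseudocount understates changes of low genes. Alternatives were other pseudocounts (0.01, 1) and FPKM minimums (1, none), centred libraries, 2-group fits, a replicate block, limma voom on recovered counts, members chosen by symbol over the whole table, and leaving out each library. Removing trends with gene length or level (loess, span 0.3, fitted to genes outside the pathway) and leaving out 2 libraries were chosen after seeing the data. The members, lists, markers and tests were chosen with earlier results of these data known. Named genes were those passing, the 2 highest and 2 lowest of each subunit, the 2 largest differences each way per class without overlap of libraries in each comparison, and a fixed set with paralog pairs. Some genes that this rule covers are not reported here. LOC100360522, the listed genes named and the promoters shown were chosen after their values were seen. Gene symbols and promoters were matched by gene identifier to RefSeq tables of GRCr8, and the deposited table's coordinates were not used.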

Additional observations from a re-analysis of the deposited data

Results flagged for a closer look

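3 members had menthol libraries that all lay above control while the libraries with both agents all lay below those with Wnt3a, so that menthol's difference pointed opposite ways without and with Wnt3a. This is 1.89% of the 159 tested members, where 34 of 11451 tested genes (0.297%) had this pattern and 28 (0.245%) its mirror image, which 0 members had. LOC100359951, which RefSeq lists as a pseudogene of *Rps20*, was at 3.77, 4.40 and 4.39 FPKM in control and 4.53, 4.89 and 5.05 FPKM with menthol, and at 6.15, 5.22 and 4.75 FPKM with Wnt3a and 3.50, 4.22 and 2.74 FPKM with both. Its interaction was −0.83 in log2(FPKM + 0.1), at 54 to 123 reads per library. The interaction was −0.15 for LOC103690996, which RefSeq names *Rpl35al1* and which is not the gene of that symbol in the table, and −0.12 for *Rps14*. None of the 3 passed the limma test of the interaction (adjusted p of 0.715 each), and their unadjusted p were 0.00057, 0.0020 and 0.0091. For *Rps14* the highest library with both agents lay only just below the lowest Wnt3a library. The shares above are not matched for gene length, and the 429 genes outside the pathway under 750 bases had a median interaction of −0.107.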

How the results depend on the processing

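The number of members passing with Wnt3a against control, 3, was 0 with no FPKM minimum, 1 with libraries centred on their median, 1 in the fit of the 2 groups only, 35 by limma voom, 0 with the length trend removed, 0 without the highest Wnt3a and lowest control library, and 0 to 43 when each library was left out in turn. The number passing with both agents against control, 1, was 0 with no FPKM minimum, 0 with centred libraries, 3 by voom, 2 with the length trend and 2 with the level trend removed, 0 without the 2 libraries, and 0 to 1 with each library left out. The cytosolic median with Wnt3a, 0.113, was 0.037 with the length trend removed, 0.069 with the level trend removed, 0.072 without the 2 libraries and 0.088 to 0.142 with each library left out. The mitochondrial median with Wnt3a was −0.023 with the length trend removed and 0.012 without the 2 libraries. For both agents against Wnt3a, removing the length trend gave 0.0079 (cytosolic) and −0.0087 (mitochondrial). For the interaction it gave 0.0076 and −0.0042, and the cytosolic median was −0.042 with the level trend removed and −0.055 without the 2 libraries. The cause of these moves was not tested. Apart from voom, the shares of all tested genes passing in these alternatives are not reported here. Choosing members by symbol, other pseudocounts and a minimum of 1 FPKM moved no class median by more than the spread between libraries. In menthol against control the cytosolic median, 0.038, was 0.0016 with the length trend removed and 0.022 to 0.050 with each library left out. For both agents against menthol the cytosolic median, 0.018, was 0.041 with the length trend removed and 0.0058 to 0.039 with each library left out, and the mitochondrial −0.047 to −0.0019. Each of these moves was within that spread, though most of the median's own size for menthol. *Rps14*, *Rps18*, *Rps18l1* and LOC684988 kept their direction in all alternatives, with adjusted p of 0.0069 to 0.385, 0.0078 to 0.481, 0.0060 to 0.440 and 0.027 to 0.170.

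Deviations from the group means correlated at −0.055 to 0.153 in the 18 same-numbered pairs of libraries from different groups. They correlated at −0.157 to 0.115 in the 36 pairs with different numbers. Whether the numbers pair the libraries cannot be told from these values. With the replicate number as a block, 0 members passed for both agents against control, and *Rps18* with Wnt3a had an adjusted p of 0.057. Differences of a few percent lie near the spread between libraries of a group, with an SD of the library medians of 0.037 in log2 for cytosolic and 0.030 for mitochondrial genes.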
